A study of Homo sapiens with 8 samples.

Results

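Clone 2, a line of human H9 embryonic stem cells made to overexpress the transcription factor ZFX, was compared with the parental H9 line on 4 Illumina bead arrays, 2 for each line. The features described are the array probes with a detection p-value under 0.05 on at least 2 of these 4 arrays, which selects on detection and not on a difference between the lines. This rule kept 19934 of the 48802 probes on the array. Of these, 15236 carried 1 gene symbol, and they covered 11651 genes, each read through its probe with the highest mean.

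H9 is an established embryonic stem cell line, and it carries none of the added DNA. Clone 2 was derived from it by delivering a bacterial artificial chromosome (BAC, a large cloned piece of genomic DNA) that holds the ZFX locus, followed by growth in a drug that kills cells without the construct. Clone 2 is a single clone, so the added ZFX, the drug selection and the passage through 1 founding cell cannot be told apart in its comparison with H9. The series holds 4 other arrays, 2 of clone 5, a second line with the ZFX BAC, and 2 of the control clone 3, a clonally derived line for which no BAC is named and which the labels do not describe as selected or unselected. All 4 lines were grown under the same embryonic stem cell conditions. Whether both arrays of a line stem from separately grown cells is not given in the labels. Every p-value here therefore measures the spread between arrays of a line, which may be technical. That spread was estimated over all 4 lines and in large part borrowed from other probes of like intensity.

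ZFX is an X-linked zinc finger protein that binds near the start of many genes and, in mouse embryonic stem cells, is needed for self-renewal. Human embryonic stem cells are kept undifferentiated by POU5F1, SOX2 and NANOG under activin or Nodal and FGF signalling. Rising BMP, Wnt or Nodal signals, or loss of activin signalling, move them towards mesoderm, endoderm, amnion-like or neural fates.

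ZFX itself read 6.06 and 5.99 on the H9 arrays and 7.55 and 7.64 on the clone 2 arrays, in normalized log2 intensity. Both clone 2 values lay above both H9 values, a log2 difference of 1.57 (SE 0.14; limma adjusted p 3.00e-08). The size depends on the background correction, and the authors' processed values gave a log2 difference of 0.83. The array probe cannot tell transcripts of the BAC from those of the chromosomal gene.

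The cells of both lines carried the markers of embryonic stem cells. Of 16 such markers on the array, 15 were detected on all 4 arrays, and their summed linear intensity was 39754 to 40315 in H9 and 38371 to 38743 in clone 2. Among the 16, LIN28B was called higher in clone 2, and POU5F1 and SALL4 were called lower. NANOG, a core pluripotency factor, read 9.53 and 9.34 in H9 and 9.37 and 9.62 in clone 2, with overlapping groups (log2 difference 0.06, SE 0.09, adjusted p 0.741). SOX2, its partner on DNA, read 10.73 and 10.49 in H9 and 10.61 and 10.66 in clone 2, which also overlapped (log2 difference 0.02, SE 0.11, adjusted p 0.932). POU5F1, the third core factor, read 11.54 and 11.75 in H9 and 11.23 and 11.26 in clone 2. It fell by 0.40 on the log2 scale (SE 0.08, adjusted p 0.00123), a call lost with each array scaled to its median (adjusted p 0.0824). The control clone 3 had a log2 difference from H9 of -0.27 (adjusted p 0.0181). Clone 2 did not pass the test against clone 3 for POU5F1 (adjusted p 0.313).

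Markers of other cell types had far lower sums than the stem cell markers in both lines, though several were detected. Of these, 5 of 10 fibroblast, 5 of 8 endoderm and 3 of 7 neural markers were detected on all 4 arrays. So were 2 of 9 mesoderm and 1 of 11 trophoblast or amnion markers. The fibroblast marker COL1A2 and the mesoderm markers MIXL1 and EOMES were called lower in clone 2, and none was called higher. The fibroblast markers LUM and POSTN were not detected on any of the 4 arrays, and the sum over 10 fibroblast markers was 919 to 964 in H9 and 793 to 818 in clone 2. The endoderm factors SOX17, GATA4 and GATA6 and the mesoderm factors TBXT, MESP1, TBX6 and FOXF1 were not detected either. The sum over 9 mesoderm markers was 311 to 372 in H9 and 283 to 292 in clone 2, and the sum over 7 neural markers was 565 to 581 and 601 to 623. The sum over 11 trophoblast or amnion markers was 313 to 314 in H9 and 298 to 303 in clone 2, and that over 8 endoderm markers was 291 to 314 and 273 to 317. Undetected probes enter these sums at background level, and the dimmest detected level was 4.78 to 4.82 in log2 intensity. The trophoblast or amnion sum is therefore close to background, and background is a large part of the mesoderm and endoderm sums. In such bulk samples, fewer cells of a type and less RNA per cell cannot be told apart.

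Over all probes, 3444 of 19934 (17.3%) differed between clone 2 and H9 at an adjusted p under 0.05, the threshold for every call here, 1830 of them higher and 1614 lower in clone 2. Over genes, 2441 of 11651 (21%) were called, 1389 higher (11.9% of those tested) and 1052 lower (9.03%). Each of these calls rests on 1 probe. Among the called genes, 739 had over 1 tested probe. In 196 of them another probe was called in the same direction, and in 15 another was called in the opposite direction. Most of these differences were small. The median size among called genes was 0.46 on the log2 scale, 1804 of the 2441 were under 1.5-fold, and 60 genes were at least 2-fold higher and 23 at least 2-fold lower. The count past 2-fold depends on how background was removed, and was 6 higher and 7 lower in the authors' processed values, 16 and 9 without background correction and 17 and 9 with an offset of 50. In all 2441 called genes both clone 2 arrays lay on 1 side of both H9 arrays, so such a separation adds nothing to a call.

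The number of calls depends on the scaling and on single arrays. With each array scaled to its median in place of quantile normalization, 750 probes were called and 40.4% of them were higher in clone 2, against 53.1% in the main result. Without H9 replicate 2, clone 2 replicate 1 or clone 2 replicate 2, 1428, 1334 and 1508 genes were called. The arrays of a line correlated at 0.993 to 0.995 across probes and those of H9 with those of clone 2 at 0.984 to 0.987. On the H9 arrays 19177 and 19251 probes were detected, and on the clone 2 arrays 20083 and 19527.

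The genes that rose were not spread evenly over the genome. A run of 217 tested neighbouring genes on the long arm of chromosome 1, from TRMT1L to COX20, stood above the genes before it in clone 2. In this run 83 genes were higher (38.2%) and 3 lower (1.38%). The count of genes higher was 51 without H9 replicate 2 or clone 2 replicate 1, 54 without clone 2 replicate 2 or without the intensity trend, and 10 under median scaling. The median log2 difference of the run from H9 was 0.27, or 1.21-fold, with quartiles of 0.05 and 0.44, and it was 0.145 in the authors' processed values. Of the 217 genes, 172 (79.3%) had a difference above 0, against 49.1% of all genes tested. The 931 tested genes of chromosome 1 before it had a median of -0.02, with 93 higher and 78 lower.

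The run was delimited after the values were seen, by the medians of windows of 40 neighbouring genes, so its excess is a description without a test. It consists of the windows of chromosome 1 whose median exceeded that of every window on any other chromosome, the highest of which was 0.15, on chromosome 16 at PIEZO1. Within the run the window medians ranged from 0.16 to 0.40, with the highest at KLHL12. Past its last gene, 19 tested genes remain before the end of the chromosome, and 6 of them (31.6%) were higher and 0 lower, with a median of 0.11. No window of 40 genes can be centred on these 19, so COX20 is the last gene a window can reach. It is not an observed end of the shift, and TRMT1L, set by the same windows, is not an observed start. At the other extreme, the lowest window of any chromosome had a median of -0.20, on chromosome 5 from PARP8 to SLC30A5, where the window medians of clones 5 and 3 against H9 were -0.12 and 0.002.

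**Figure D1:**
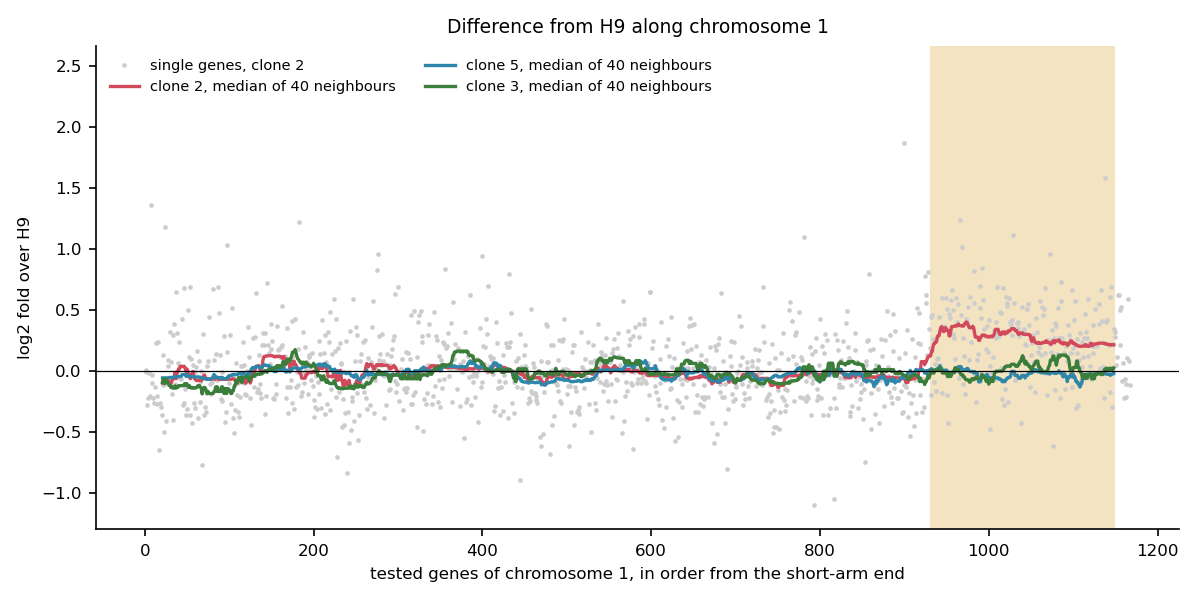
Log2 fold over H9 of the tested genes of chromosome 1 in clone 2 (grey points) and the median of 40 neighbouring genes in clones 2, 5 and 3 (lines), plotted in gene order from the short-arm end with the run from TRMT1L to COX20 shaded. The clone 2 line lies between 0.16 and 0.40 in the shaded run, while the lines of clones 5 and 3 stay between -0.13 and 0.13 there.

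Both clone 2 arrays showed the shift. Set against the H9 mean, the median over the 217 genes was 0.27 and 0.24 on the clone 2 arrays and 0.03 and -0.03 on the H9 arrays. It was -0.04 and -0.04 on the arrays of clone 5, and 0.006 and -0.009 on those of clone 3. The run was chosen by the difference of clone 2 from H9, so its height on the clone 2 arrays follows in part from the choice. Over all chromosomes the window medians ranged from -0.16 to 0.13 in clone 5 and from -0.26 to 0.19 in clone 3. In the direct comparison of clones 2 and 5, 60 of the 217 genes (27.6%) were higher in clone 2 and 0 were lower, against 2.71% of all genes tested that were higher in clone 2. The 196 genes of the run that were detected on all 4 arrays had the same median, 0.27.

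Several of the larger single changes lie in this run, and the genes given here were picked from it after their values were seen. CHRM3, a muscarinic acetylcholine receptor, read 6.22 and 6.03 in H9 and 7.79 and 7.63 in clone 2 (log2 difference 1.58, SE 0.13, adjusted p 7.76e-09). RNPEP, an aminopeptidase, read 8.10 and 8.13 in H9 and 9.36 and 9.35 in clone 2 (log2 difference 1.24, SE 0.10, adjusted p 5.94e-09). NENF, a secreted neurotrophic factor, read 8.58 and 8.57 in H9 and 9.76 and 9.61 in clone 2 (log2 difference 1.11, SE 0.09, adjusted p 7.06e-09). For each of them the 2 clone 2 arrays were close together and lay above H9. The same genes had differences from H9 of 0.64, 0.58 and 0.60 in clone 5, where clone 2 was the higher (adjusted p 1.23e-04, 3.90e-04 and 0.00196), and of 0.10, 0.92 and 0.26 in clone 3.

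UBE2T, the ubiquitin-conjugating enzyme of the Fanconi anaemia pathway, rose from 8.56 and 8.54 to 9.61 and 9.52 (log2 difference 1.01, adjusted p 1.59e-08). It did not pass the test against clone 5 (adjusted p 0.113), which had a difference from H9 of 0.76. ARF1, a GTPase of vesicle transport, rose from 10.20 and 10.38 to 11.04 and 10.995 (log2 difference 0.73, adjusted p 1.95e-06). PARP1, a DNA damage sensor, rose from 12.14 and 12.11 to 12.56 and 12.48 (log2 difference 0.39, adjusted p 9.43e-04). The 3 genes of the run that fell were MIXL1, detected on neither clone 2 array and at least 1.25-fold lower, NR5A2, by 0.43, and SMYD2, by 0.42. Parts of chromosome 1's long arm are among the segments known to be gained when human pluripotent cells are kept in culture. Here DNA was not analysed, and copy number as a source of the shift was not tested.

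Outside the run, NPTX1, a neuronal pentraxin of excitatory synapses, was detected on neither H9 array (4.54 and 4.67) and read 6.76 and 6.69 in clone 2. It was at least 3.74-fold higher there, where the bound sets the clone 2 mean against the dimmest detected level of each H9 array (adjusted p 1.56e-09). This bound, like the others given here, holds only for the background correction used. In the authors' processed values the log2 difference of NPTX1 was 0.75. SEPTIN5, a septin that sits on synaptic vesicles, read 6.26 and 6.15 in H9 and 8.13 and 8.14 in clone 2. The lines were far apart relative to their arrays, with a log2 difference of 1.93 (SE 0.11, adjusted p 2.94e-11). SYT4, a synaptotagmin of regulated secretion, read 6.59 and 6.66 in H9 and 8.30 and 8.38 in clone 2 (log2 difference 1.72, SE 0.11, adjusted p 8.27e-11).

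WDR72, a WD-repeat protein needed for enamel formation, read 7.74 and 7.46 in H9 and 9.63 and 9.35 in clone 2 (log2 difference 1.89, SE 0.11, adjusted p 1.87e-11). RAB17, a small GTPase of epithelial membrane traffic, was well above background in both lines. It read 8.96 and 8.90 in H9 and 10.51 and 10.71 in clone 2 (log2 difference 1.68, SE 0.09, adjusted p 2.02e-12). BBS9, a subunit of the complex that loads cargo into cilia, rose from 8.43 and 8.36 to 9.39 and 9.64 (log2 difference 1.12, adjusted p 2.36e-08).

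CLC, a galectin known from eosinophils, rose by 1.72 on the log2 scale from 5.25 and 4.94, near the dimmest detected level. CLEC2A, a C-type lectin that binds a natural killer cell receptor, rose by 1.71 from 4.87 and 5.04. IZUMO2 was detected on neither H9 array (4.35 and 4.60, against 6.28 and 6.06) and was at least 2.55-fold higher in clone 2. Their adjusted p-values were 4.13e-08, 2.94e-08 and 6.33e-07. KCNJ2, an inward rectifier potassium channel that was detected on 1 of the 2 H9 arrays, and RGS11, a regulator of G protein signalling, rose by 1.42 and 1.36. These 5 genes were near background in H9, where a log2 difference depends most on the background correction, and in the authors' processed values CLC, CLEC2A, IZUMO2, KCNJ2 and RGS11 had differences of 0.67, 0.62, 0.55, 0.465 and 0.46. HES4, a Notch target, and DPP7, a lysosomal peptidase, rose by 1.36 and 1.35. Of the other 3 DPP7 probes, 2 rose by 0.78 and 0.47 and 1 had a difference of 0.48 that did not pass (adjusted p 0.067).

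KIAA0040 is the exception among the largest rises, because 1 array decides its value. It read 5.35 and 5.15 in H9 and 5.35 and 8.88 in clone 2. Its log2 difference of 1.87 (adjusted p 0.0177) lost its call without clone 2 replicate 2 (adjusted p 0.823) and without H9 replicate 2 (adjusted p 0.100).

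Among the largest falls, ECHDC3, an enoyl-CoA hydratase-like protein, fell from 7.996 and 8.02 in H9 to 5.70 and 5.66 in clone 2 (log2 difference -2.33, SE 0.11, adjusted p 7.86e-13). GLIPR1L1, a CAP-family protein known from sperm, fell from 9.24 and 9.25 to 7.15 and 7.17 (log2 difference -2.08, SE 0.09, adjusted p 2.58e-13). OTX2, a homeodomain factor of the epiblast and the anterior nervous system, fell from 8.61 and 8.50 to 7.15 and 7.04 (log2 difference -1.46, SE 0.10, adjusted p 4.59e-10). For all of them the 2 arrays of a line lay far closer together than the lines did.

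SP8, a zinc finger factor of limb and forebrain, fell by 1.51 on the log2 scale (H9 7.67 and 7.64, clone 2 6.07 and 6.22, adjusted p 5.94e-09). SOCS2, a feedback inhibitor of cytokine signalling, fell by 1.33 (H9 9.39 and 9.62, clone 2 8.15 and 8.20, adjusted p 8.60e-10). CMIP, an adaptor protein of T cell and neuronal signalling, fell by 1.08 (H9 10.47 and 10.60, clone 2 9.43 and 9.48, adjusted p 1.47e-08). HAS2, a hyaluronan synthase, fell by 1.40 (H9 7.10 and 7.18, clone 2 5.68 and 5.81, adjusted p 5.24e-08), a second HAS2 probe fell by 0.74 (adjusted p 6.52e-04), and another had a difference of 0.37 that did not pass (adjusted p 0.169). PPP1R13L, an inhibitor of p53, SLC35G1, a membrane protein, LRRC58, a leucine-rich repeat protein, and TNMD, a tendon glycoprotein, fell by 1.20, 1.17, 1.16 and 1.12. Of these, PPP1R13L was detected on 1 of the 2 clone 2 arrays.

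**Figure D2:**
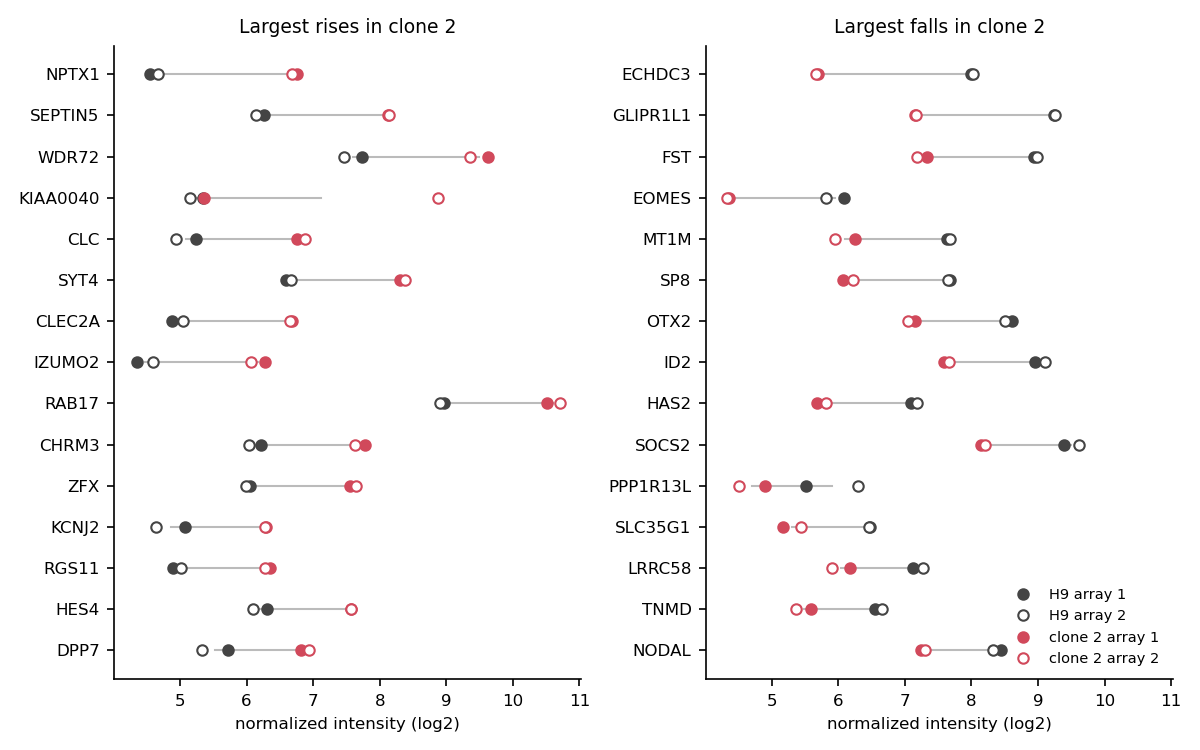
Normalized log2 intensity on each array for the 15 largest rises (left) and the 15 largest falls (right) in clone 2 against H9, with filled and open circles for the 2 arrays of a line and a grey line joining the line means. The 2 arrays of a line lie close together for nearly all genes, except KIAA0040, which read 5.35 and 8.88 in clone 2.

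ZFX is known to bind the core motif AGGCCT, so the promoters of the genes that changed most were searched for it. The motif is its own reverse complement, so a match counts for both strands, and the window held 300 bases around the gene's start, most of them upstream, in RefSeq (GRCh38.p14). The promoters of 3 of 11 named rises (CLC, RAB17 and HES4) and of 3 of 12 named falls (ECHDC3, OTX2 and NODAL) hold it. Shown here, with the motif in capitals, are the promoters of ECHDC3, the largest fall, of OTX2 and NODAL, which regulate early development, and of RAB17, a large rise in a well detected gene. They lie at chr10:11742132-11742431 on the plus strand (ECHDC3), chr14:56810430-56810729 (OTX2), chr10:70441632-70441931 (NODAL) and chr2:237590685-237590984 (RAB17), the last 3 on the minus strand.
ECHDC3: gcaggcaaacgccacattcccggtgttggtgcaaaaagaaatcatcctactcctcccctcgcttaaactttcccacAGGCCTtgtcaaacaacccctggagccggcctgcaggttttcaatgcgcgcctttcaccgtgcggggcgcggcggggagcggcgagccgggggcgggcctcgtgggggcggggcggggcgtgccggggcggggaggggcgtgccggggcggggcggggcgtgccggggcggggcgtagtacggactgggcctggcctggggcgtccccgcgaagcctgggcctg
OTX2: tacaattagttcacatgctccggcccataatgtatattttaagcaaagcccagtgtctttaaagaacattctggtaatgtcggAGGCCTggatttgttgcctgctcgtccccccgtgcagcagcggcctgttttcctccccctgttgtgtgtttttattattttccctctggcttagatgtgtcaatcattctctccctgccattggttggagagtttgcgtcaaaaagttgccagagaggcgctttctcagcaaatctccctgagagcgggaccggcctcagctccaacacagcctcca
NODAL: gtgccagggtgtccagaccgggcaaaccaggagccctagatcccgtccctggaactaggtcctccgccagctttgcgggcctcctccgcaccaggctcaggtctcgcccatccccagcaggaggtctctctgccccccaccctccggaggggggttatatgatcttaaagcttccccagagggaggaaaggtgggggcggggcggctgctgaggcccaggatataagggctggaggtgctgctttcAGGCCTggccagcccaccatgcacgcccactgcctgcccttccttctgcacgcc
RAB17: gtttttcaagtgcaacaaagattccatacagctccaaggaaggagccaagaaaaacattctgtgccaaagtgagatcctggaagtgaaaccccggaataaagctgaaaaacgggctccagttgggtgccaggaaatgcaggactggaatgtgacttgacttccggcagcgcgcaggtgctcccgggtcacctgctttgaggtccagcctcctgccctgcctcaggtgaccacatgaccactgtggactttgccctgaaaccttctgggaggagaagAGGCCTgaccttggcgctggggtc

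In the larger sets the motif was about as frequent in genes that changed as in all others. It was present in 1002 of 9492 promoters of tested genes (10.6%), in 114 of 1130 promoters of genes called higher (10.1%) and in 93 of 885 of genes called lower (10.5%). Among genes at least 2-fold apart it was present in 6 of 41 promoters of those higher and 4 of 19 of those lower. The median GC content of the promoters was 65.0% over all tested genes, 66.3% for those higher and 64.7% for those lower. A match is a description of the letters only and not a binding site.

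The genes were next grouped by pathway and cell type in 35 lists, which hold 871 genes, 626 of them tested. A list's counts are set beside 11.9% of all genes called higher, 9.03% called lower and a median log2 difference of -0.005. The lists were chosen with earlier results of these data known. An excess over these shares therefore follows in part from the choice and was not tested. Under median scaling, which lowered the median of all genes to -0.09, the list medians of 10 of the 35 lists changed sign, the largest of them 0.085 in size there. Of the 147 genes named by rule, none of the 145 called ones changed direction under any alternative tried, 58 lost their call under median scaling and 38 when 1 of the 4 arrays was left out. NANOG and SOX2, which were not called, changed sign under median scaling. In the authors' processed values the difference was over 1.5 times smaller for 73 of the called ones.

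Counts of called list members also depend on single arrays. Of 22 counts of 5 or more members called in 1 direction, 14 moved by over 1.5 times when 1 of the 4 arrays was left out. The number of lower members went from 6 to as few as 1 in the imprinted list and from 6 to 2 in heat shock and folding. The number of higher members went from 5 to as few as 1 among Wnt ligands, receptors, carriers and inhibitors, from 7 to 2 in amino acid stress and in glycolysis and hypoxia, and from 8 to 4 in pluripotency. In the Notch list 7 were higher in each case, in the neuronal and synaptic list 8 to 10, and in BEX and TCEAL 4 or 5.

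**Figure D3:**
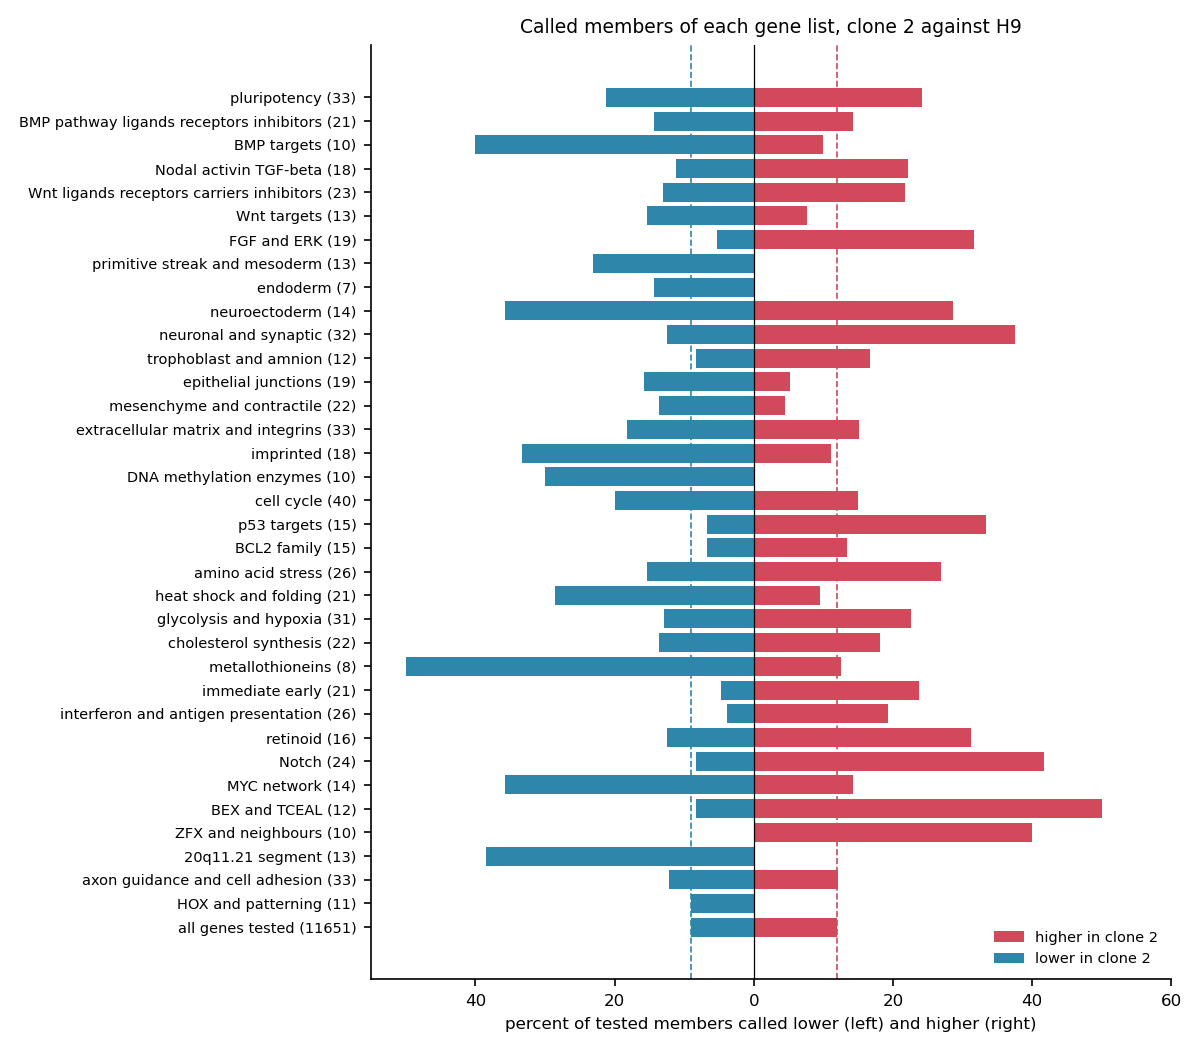
Percent of the tested members of each of the 35 lists that were called higher (red, right) or lower (blue, left) in clone 2 than in H9, with the number tested in brackets and dashed lines at the shares over all 11651 genes. BEX and TCEAL (50%), Notch (41.7%) and ZFX with its neighbours (40%) reach furthest to the right, and metallothioneins (50%) and BMP targets (40%) furthest to the left. The lists were chosen with earlier results of these data known.

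BMP signalling, in which BMP ligands act through SMAD1 and SMAD5 to switch on the ID genes, had more targets lower than higher in clone 2. Of 10 tested BMP targets, 4 fell (ID2, ID1, SMAD7 and ID3) and 1 rose (SMAD6), with a median of -0.21. ID2, an inhibitor of basic helix-loop-helix factors, read 8.95 and 9.11 in H9 and 7.58 and 7.67 in clone 2 (log2 difference -1.40, SE 0.10, adjusted p 6.96e-10). Its relative ID1 read 9.78 and 10.05 in H9 and 9.29 and 9.33 in clone 2 (log2 difference -0.60, SE 0.09, adjusted p 7.04e-05). ID3, the third of the family, fell by 0.34 (adjusted p 0.00488).

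Among 21 tested BMP ligands, receptors and inhibitors, 3 were higher and 3 lower, with a median of 0.06. The ligand BMP7 rose by 0.88 (H9 6.18 and 5.92, clone 2 6.94 and 6.91, adjusted p 1.78e-04). The secreted inhibitor FST, which traps activin and some BMPs, fell by 1.71 (H9 8.93 and 8.99, clone 2 7.33 and 7.19, adjusted p 6.54e-12). The inhibitory SMADs moved apart, with SMAD6 higher by 0.54 (adjusted p 0.00154) and SMAD7 lower by 0.45 (adjusted p 0.00509). SMAD7 lost its call without H9 replicate 2 (adjusted p 0.0527), and a second SMAD7 probe had a difference of 0.23 that did not pass.

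Nodal signalling, which keeps human embryonic stem cells undifferentiated and at higher dose makes them mesendoderm, changed in its ligand and its feedback inhibitor in opposite directions. Of 18 tested genes of the Nodal, activin and TGF-beta list, 4 were higher and 2 lower, with a median of 0.01. The ligand NODAL read 8.45 and 8.33 in H9 and 7.24 and 7.30 in clone 2 (log2 difference -1.12, SE 0.10, adjusted p 4.01e-08). Its inhibitor LEFTY2 read 8.31 and 8.37 in H9 and 9.26 and 9.35 in clone 2 (log2 difference 0.96, SE 0.08, adjusted p 2.36e-08). LEFTY2 and LEFTY1, which was higher by 0.24, both lie in the raised run of chromosome 1. The receptor TGFBR2 rose by 0.70 (adjusted p 3.34e-04) and lies outside it.

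In the Wnt pathway, 5 of 23 tested ligands, receptors, carriers and inhibitors were higher and 3 lower, with a median of 0.04. A pair of secreted inhibitors fell. SFRP1 read 10.85 and 10.71 in H9 and 10.18 and 10.20 in clone 2 (log2 difference -0.60, adjusted p 2.55e-05), and SFRP2 fell by 0.54 (adjusted p 1.29e-04). Of 13 Wnt target genes, SP8 and SP5 fell and NKD2 rose, with a median of -0.14, though NKD2 lost its call without H9 replicate 2 and without each clone 2 array (adjusted p 0.0776 to 0.196). SP5, an immediate target of beta-catenin, read 5.52 and 5.49 in H9 and was detected on neither clone 2 array (4.65 and 4.60), at least 1.64-fold lower (adjusted p 1.88e-04).

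FGF signalling through ERK, the other pathway that maintains these cells, was represented by 19 tested genes, of which 6 rose and 1 fell, with a median of 0.06 that turned to -0.06 under median scaling. The rises were mostly in target genes. ETV5, an ETS factor induced by FGF, read 9.03 and 8.98 in H9 and 10.02 and 9.996 in clone 2 (log2 difference 1.0, SE 0.09, adjusted p 3.61e-08). A second ETV5 probe had a difference of 0.23 that did not pass. The ERK phosphatase DUSP5 rose by 0.62 (adjusted p 2.24e-05), the early response factor EGR1 by 0.56 (adjusted p 9.50e-04) and the feedback inhibitor IL17RD by 0.53 (adjusted p 0.0011). A second IL17RD probe had a difference of -0.17 that did not pass (adjusted p 0.432). Immediate early genes as a list had 5 of 21 tested members higher and 1 lower, with a median of 0.10, and ZFP36, which destabilises messenger RNAs, rose by 0.60.

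Notch signalling, in which a ligand on one cell releases the receptor's inner domain in its neighbour to drive HES and HEY genes, had the highest median of the 35 lists. Of 24 tested members, 10 rose and 2 fell, with a median of 0.29 that was 0.18 under median scaling, where 2 were called higher and 0 lower. The receptor NOTCH1 rose by 0.59 (adjusted p 5.00e-05), the ligand DLL3 by 0.55 (adjusted p 0.00101) and the glycosyltransferase LFNG, which modifies Notch, by 0.61 (adjusted p 3.76e-04). Among effectors, HES4 read 6.30 and 6.10 in H9 and 7.56 and 7.57 in clone 2 (log2 difference 1.36, SE 0.12, adjusted p 4.75e-08). HES5 rose by 0.64 (adjusted p 0.00139), the corepressor TLE2 by 1.16 (adjusted p 6.08e-05), and HES1 fell by 0.42 (adjusted p 0.00398). A second LFNG probe had a difference of -0.04 and did not pass.

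Genes that make, carry or respond to retinoic acid were also called often, with 5 of 16 tested members higher and 2 lower and a median of 0.06. DHRS3, which turns retinal back to retinol, rose from 6.54 and 6.51 to 7.62 and 7.50 (log2 difference 1.03, adjusted p 5.72e-06). CYP26A1, which breaks retinoic acid down, fell from 8.32 and 8.21 to 7.22 and 7.50 (log2 difference -0.91, adjusted p 1.36e-06), and of the other 2 CYP26A1 probes 1 fell by 0.62 (adjusted p 0.0147) and 1 had a difference of -0.25 that did not pass. The receptor RARA fell by 0.62 (adjusted p 2.17e-04), and the synthesis enzyme ALDH1A3 rose by 0.64 (adjusted p 3.41e-04).

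**Figure D4:**
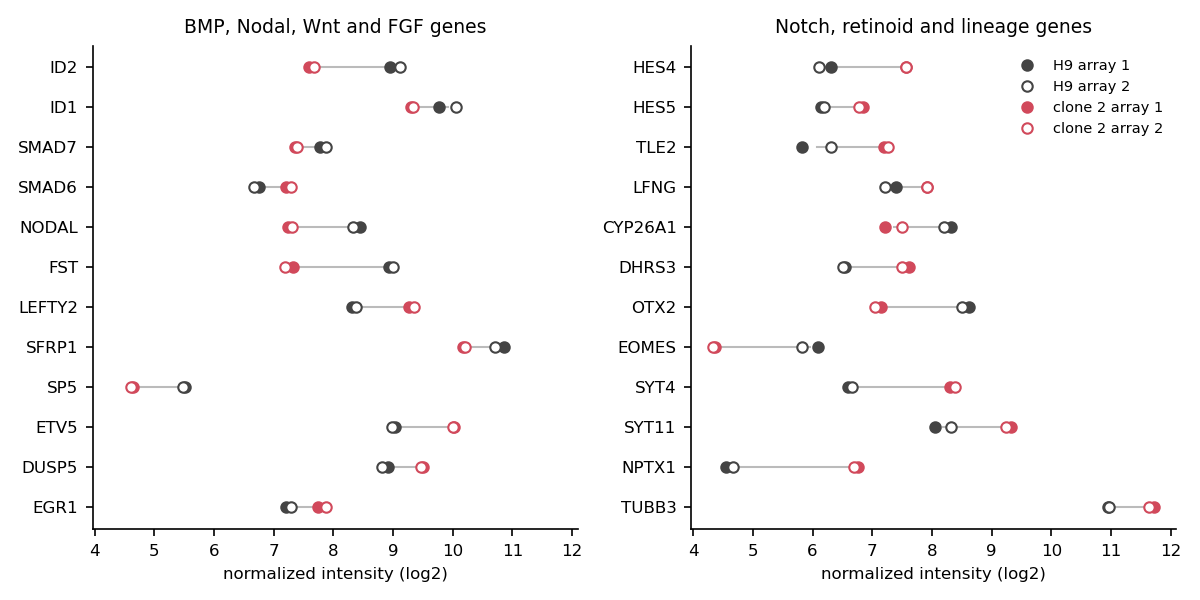
Normalized log2 intensity on each array for genes of the BMP, Nodal, Wnt and FGF pathways (left) and of Notch, retinoid and lineage lists (right), with filled and open circles for the 2 arrays of a line and grey lines between line means. The clone 2 points lie to the left of H9 for ID2, NODAL, FST, OTX2 and EOMES and to the right for LEFTY2, ETV5, HES4, SYT4 and NPTX1.

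Genes of the germ layers gave few rises. Of 13 tested genes of the primitive streak and mesoderm, 0 rose and 3 fell (EOMES, ACTC1 and MIXL1), with a median of -0.20. EOMES, a T-box factor of mesendoderm, read 6.09 and 5.82 in H9 and was detected on neither clone 2 array (4.36 and 4.33), at least 2.24-fold lower (adjusted p 3.29e-08). Its log2 difference was -0.52 in the authors' processed values. MIXL1, a homeodomain factor of the streak, was at least 1.25-fold lower (adjusted p 0.00902), a call lost without H9 replicate 1 or clone 2 replicate 1 (adjusted p 0.0705 and 0.119). Of 7 tested endoderm genes only KIT, a receptor tyrosine kinase, was called, lower by 0.53 (adjusted p 7.73e-04), and a second KIT probe had a difference of 0.02. Of 12 trophoblast and amnion genes, TFAP2C and GABRP rose by 1.07 and 0.996 and IGFBP3 fell, with a median of 0.05, though IGFBP3 lost its call without H9 replicate 2 and without each clone 2 array (adjusted p 0.0626 to 0.210). HOX and patterning genes had 11 tested members, of which GLI2, a factor of hedgehog signalling, fell by 0.61 and 0 rose.

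Neural genes changed in both directions. Of 14 tested neuroectoderm genes, 4 rose and 5 fell, with a median of -0.11. Beside OTX2, the intermediate filament gene VIM fell by 0.79 (adjusted p 1.43e-06), while the neuronal tubulin TUBB3 rose from 10.96 and 10.97 to 11.72 and 11.64 (log2 difference 0.72, adjusted p 6.01e-07). Of 32 tested neuronal and synaptic genes, 12 rose and 4 fell, with a median of 0.04 that turned to -0.05 under median scaling. Beside NPTX1, SEPTIN5 and SYT4, SYT11, a synaptotagmin without calcium binding, rose by 1.09 (adjusted p 3.29e-08), SNAP91, a clathrin assembly protein, by 0.92 (adjusted p 3.01e-04) and VGF, a secreted neuropeptide precursor, by 0.86 (adjusted p 2.16e-06). GAD1, the GABA-synthesising enzyme, fell from 5.41 and 5.45 to below detection on both clone 2 arrays (adjusted p 2.40e-05). The neural markers SOX1 and NEUROG2 were detected on none of the 4 arrays.

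The pluripotency list was split. Of 33 tested members, 8 rose and 7 fell, with a median of -0.03. DPPA2, a chromatin protein of pluripotent and germ cells, read 6.28 and 6.31 in H9 and 7.43 and 7.55 in clone 2 (log2 difference 1.19, SE 0.13, adjusted p 4.82e-07). PRDM14, a repressor that protects the pluripotent state, fell by 0.71 (adjusted p 7.69e-05). UTF1 and DPPA3, both marks of early pluripotent cells, rose by 0.63 and 0.59, and SALL4, a zinc finger partner of POU5F1, fell by 0.30 (adjusted p 0.00901).

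Enzymes of DNA methylation and imprinted genes were mostly lower where they were called. Of 10 tested methylation genes, 0 rose and 3 fell (UHRF1, DNMT3A and TET1), with a median of -0.17. DNMT3A lost its call without either H9 array or clone 2 replicate 2 (adjusted p 0.0568 to 0.380), and TET1 without H9 replicate 2 and without each clone 2 array (adjusted p 0.118 to 0.330), and no other probe of either gene passed. UHRF1, which brings the maintenance methyltransferase to replicated DNA, fell by 0.48 (adjusted p 3.31e-04), and a second UHRF1 probe had a difference of -0.46 at an adjusted p of 0.051. Of 18 imprinted genes, 2 rose and 6 fell, while the median was 0.09. NDN, expressed from the paternal copy, rose by 0.66 (adjusted p 2.41e-06), and ZNF597 was at least 1.37-fold lower (adjusted p 0.00186). A second ZNF597 probe had a difference of -0.48 that did not pass (adjusted p 0.0657).

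Cell cycle genes gave 6 rises and 8 falls among 40 tested, with a median of -0.09. CDKN1A, the p21 inhibitor of cyclin-dependent kinases, read 7.74 and 7.83 in H9 and 8.90 and 8.88 in clone 2 (log2 difference 1.10, SE 0.09, adjusted p 1.59e-08). The replication genes RRM2, a ribonucleotide reductase subunit, and MCM5, a helicase subunit, fell by 0.70 and 0.52 (adjusted p 1.52e-04 and 4.09e-04). Of 15 tested p53 targets, 5 rose, CDKN1A among them, and 1 fell (TP53I3, by 0.58), with a median of 0.11. PHLDA3, a p53-induced inhibitor of AKT, rose by 0.60 (adjusted p 0.0048) and lies in the raised run of chromosome 1. It lost its call without clone 2 replicate 1 (adjusted p 0.0515).

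The MYC network had 2 rises and 5 falls among 14 tested, with a median of -0.27. MYCN, the MYC family member of embryonic stem cells and neuroblastoma, fell from 11.18 and 11.29 to 10.59 and 10.72 (log2 difference -0.58, adjusted p 1.98e-05). ODC1, the polyamine enzyme and a MYC target, fell by 0.56 (adjusted p 1.03e-04), and MXD4, an antagonist of MYC, rose by 0.55 (adjusted p 3.34e-04). In the BCL2 family, 2 of 15 tested genes rose and 1 fell, with a median of 0.09, and BNIP3, a mitochondrial receptor of mitophagy, rose by 0.53 (adjusted p 1.61e-04).

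Metallothioneins, small proteins that bind zinc and other metals, fell in 4 of 8 tested members and rose in 1, with a median of -0.24. MT1M read 7.64 and 7.68 in H9 and 6.24 and 5.95 in clone 2 (log2 difference -1.56, SE 0.13, adjusted p 7.06e-09). MT2A fell by 0.67 (adjusted p 1.16e-04), and MT1X rose by 0.51 (adjusted p 4.83e-04). These genes are near-identical in sequence, so single probes may not tell them apart.

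Of 21 tested heat shock and folding genes, 2 rose and 6 fell, with a median of -0.15. The 6 that fell (HYOU1, SDF2L1, DNAJB9, CALR, PDIA6 and XBP1) act in protein folding of the endoplasmic reticulum or, for XBP1, its stress response, and the 2 that rose (BAG3 and HSPA1A) are cytosolic. HSPA1A lost its call without H9 replicate 2 (adjusted p 0.0541), and its near-identical copy HSPA1B may share its signal. HYOU1, a chaperone, fell by 0.84 (adjusted p 1.82e-06) and BAG3, a cochaperone of HSP70, rose by 0.74 (adjusted p 8.27e-06). Genes of the amino acid stress response had 7 of 26 higher and 4 lower (median 0.03), and PSAT1, an enzyme of serine synthesis, fell by 0.63 (adjusted p 3.21e-05) while DDIT4, an inhibitor of mTORC1, rose by 0.62 (adjusted p 5.78e-05). Glycolysis and hypoxia genes had 7 of 31 higher and 4 lower (median 0.07), with ADM, the vasodilator adrenomedullin, lower by 0.72 (adjusted p 2.16e-06). Cholesterol synthesis had 4 of 22 higher and 3 lower (median -0.03), and FDPS, which makes farnesyl pyrophosphate, rose by 0.49 (adjusted p 0.00145).

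In the interferon and antigen presentation list, 5 of 26 tested genes were higher and 1 lower, with a median of 0.02. HLA-DRA, a class II antigen presentation chain, rose from 6.46 and 6.69 to 7.79 and 7.93 (log2 difference 1.28, adjusted p 3.57e-07). IFITM1, an interferon-induced membrane protein, rose by 0.66 (adjusted p 3.07e-06).

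Of 33 tested matrix and integrin genes, 5 rose and 6 fell, with a median of -0.007. VCAN, a large proteoglycan, fell from 10.28 and 10.01 to 9.17 and 9.16 (log2 difference -0.98, adjusted p 1.77e-06), and COL4A6, a basement membrane collagen, fell by 0.96 (adjusted p 1.13e-05). LAMC1, a laminin chain that lies on chromosome 1 before the start set for the raised run, rose by 0.78 (adjusted p 2.76e-06). Of 33 axon guidance and adhesion genes, 4 rose and 4 fell (median -0.06), with SLIT2, a secreted repellent, lower by 0.99 (adjusted p 1.44e-05) and the protocadherin PCDH18 higher by 0.74 (adjusted p 1.34e-05), although a second PCDH18 probe had a difference of 0.08. Epithelial junction genes had 1 of 19 higher and 3 lower (median -0.09), with the desmosomal gene DSP lower by 0.53 (adjusted p 0.00203) and a second DSP probe at 0.10. Mesenchymal and contractile genes had 1 of 22 higher and 3 lower (median -0.06), with the smooth muscle actin gene ACTG2 higher by 0.71 (adjusted p 6.05e-05).

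3 of the lists describe places in the genome or gene families rather than pathways. Of 10 tested genes of the list of ZFX and its neighbours on the X chromosome, 4 were higher and 0 lower. Their median was 0.10, and 0.003 under median scaling. The 4 were ZFX, the gene that the BAC was delivered to add, and its neighbours ACOT9, PRDX4 and PDK3. ACOT9, an acyl-CoA thioesterase, read 8.39 and 8.77 in H9 and 9.64 and 9.45 in clone 2 (log2 difference 0.96, adjusted p 1.12e-06), and the peroxiredoxin PRDX4 rose by 0.53 (adjusted p 6.59e-05). PDK3 lost its call without clone 2 replicate 1 (adjusted p 0.113), and a second PDK3 probe had a difference of 0.10 that did not pass. Which of these neighbours the BAC holds is not stated in the labels. Of 12 genes of the X-linked BEX and TCEAL family, 6 rose and 1 fell, with a median of 0.20. BEX5 was detected on neither H9 array and was at least 2.15-fold higher (adjusted p 1.92e-06). The authors' processed values gave BEX5 a log2 difference of 0.43. TCEAL3 rose by 0.80 and TCEAL4 by 0.71 (adjusted p 1.82e-06 and 6.98e-07), although a second TCEAL4 probe had a difference of 0.04. The 20q11.21 segment, another place of recurrent gain in cultured embryonic stem cells, went the other way, with 0 of 13 tested genes higher and 5 lower and a median of -0.22. The count lower was 3 without H9 replicate 2 or clone 2 replicate 1 and 2 under median scaling. ID1, also a BMP target above, is among the 5, and other probes of HM13 (0.009 and -0.19) and BCL2L1 (-0.23) did not pass. The median of this list against H9 was also below 0 in clone 5 and in clone 3 (-0.11 in each).

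Clone 5 carries the same kind of BAC as clone 2 and was compared with it directly in the same model. Of all genes, 464 (3.98%) differed between the clones. Of the 1389 genes higher in clone 2 than in H9, 217 (15.6%) differed between the clones, and in 215 of these clone 2 was the higher. Of the 1052 lower genes, 112 (10.6%) differed, and in 104 clone 2 was the lower. Among genes at least 2-fold apart from H9, 24 of 60 rises and 6 of 23 falls differed between the clones. Genes were chosen here for a high or low value in clone 2, so the direction of these differences follows in part from the choice.

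For many of the largest changes the 2 ZFX clones had similar differences from H9, which rest on the same H9 arrays. NPTX1, not detected in H9, read 6.76 and 6.69 in clone 2 and 7.02 and 6.87 in clone 5. SEPTIN5 had log2 differences of 1.93 in clone 2 and 2.18 in clone 5, SYT4 1.72 and 1.55, and ID2 -1.40 and -1.28. None of these 4 passed the test between the clones (adjusted p 0.508, 0.261, 0.459 and 0.572), which does not show that they are equal. ZFX had 1.57 in clone 2 and 1.27 in clone 5 (adjusted p 0.272). GLIPR1L1 fell less in clone 2 than in clone 5, with -2.08 and -2.58 (adjusted p 0.00262).

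Other changes were larger in clone 2 than in clone 5. OTX2 had a log2 difference from H9 of -1.46 in clone 2 and -0.42 in clone 5, and the clones differed (adjusted p 8.74e-07). ECHDC3 had -2.33 and -1.16 (adjusted p 7.69e-07). VGF had 0.86 and -0.002 (adjusted p 1.27e-05), CDKN1A 1.10 and 0.39 (adjusted p 6.76e-05), and DUSP5 0.62 and 0.01 (adjusted p 1.91e-04). SFRP1 was lower than H9 by 0.60 in clone 2 and had a difference of 0.18 in clone 5 (adjusted p 6.50e-06).

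The control clone 3 differed from clone 2 in 2559 genes (22%). Of the genes called between clone 2 and H9, 654 of the 1389 higher and 345 of the 1052 lower also differed between clones 2 and 3. Clone 2 was higher than clone 3 in 603 of the 654 and lower in 51. Of the 345, it was lower in 297 and higher in 48. Among those at least 2-fold apart from H9, 55 of 60 rises and 20 of 23 falls differed between clones 2 and 3. Clone 2 was higher in 54 of these 55 and lower in all 20. These genes too were chosen by their value in clone 2, so the directions follow in part from the choice. Clone 3 itself stood apart from H9, with log2 differences of 4.20 for EOMES, 3.67 for MIXL1, 2.55 for GLIPR1L1, 2.53 for LEFTY2 and 1.95 for NODAL. For some rises of clone 2 its difference from H9 was near 0, with -0.15 for SEPTIN5 and 0.08 for UBE2T. CDKN1A was higher than H9 in clone 3 by 1.16, next to 1.10 in clone 2, and CMIP was lower in both, with -1.05 and -1.08.

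**Figure D5:**
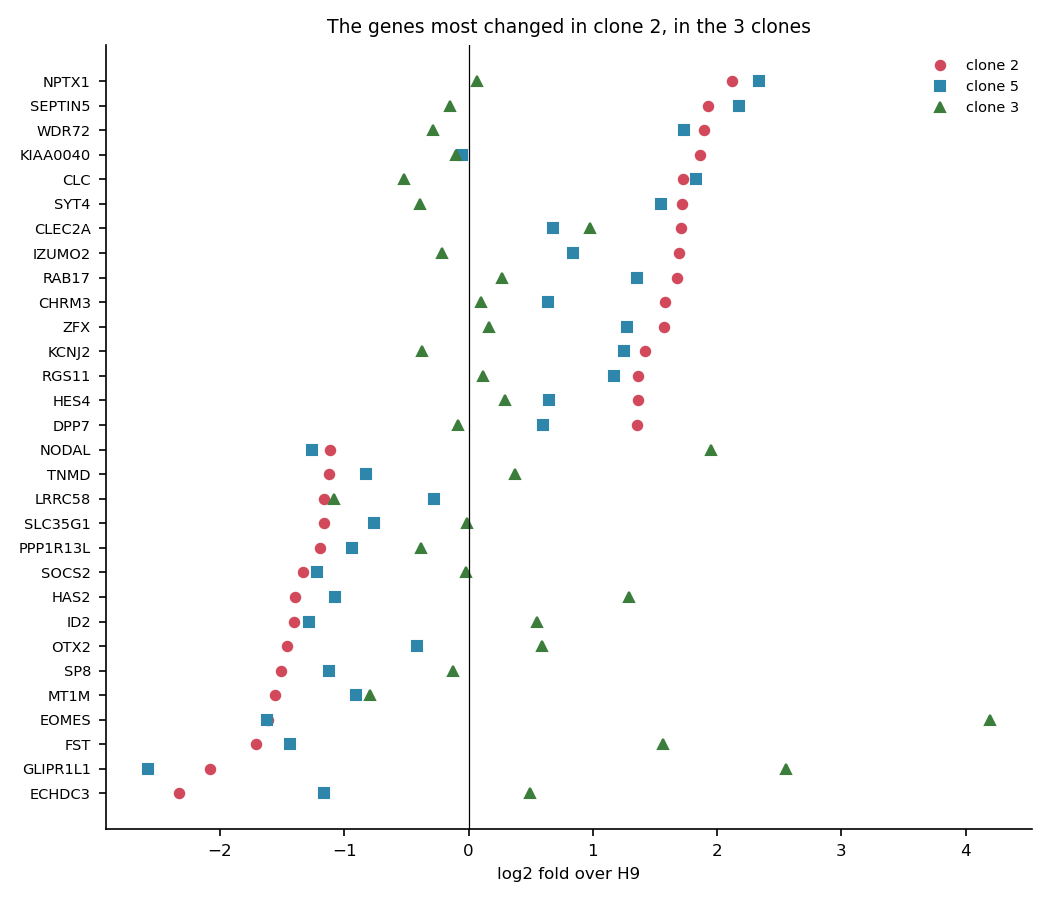
Log2 fold over H9 in clone 2 (circles), clone 5 (squares) and clone 3 (triangles) for the 15 largest rises and the 15 largest falls of clone 2. All folds are fitted values that share the same H9 arrays, on which NPTX1 and IZUMO2 were not detected. The squares lie near the circles for NPTX1, SEPTIN5 and SYT4 and nearer to 0 for OTX2, ECHDC3 and LRRC58, and the triangle of EOMES lies at 4.20.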

How the data were processed

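RNA of H9 and clone 2 was measured on 2 Illumina bead arrays each, next to 4 arrays of clones 3 and 5. The authors deposited linear probe intensity, a detection p-value for every probe and array, and a second table of log2 values. Per the submitters' processing notes the software was BeadStudio, with version and settings not given in the sources used here. The deposited intensity is not normalized. The authors' log2 values share 1 median in all arrays and served as an alternative, since their background correction is unknown. Groups and replicate numbers came from the titles.

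Intensities were background corrected with normexp in limma 3.58.1 (R 4.3.3), with an offset of 16 and negative controls inferred from detection p-values, then quantile normalized and put on the log2 scale. A limma model with 4 line means over all 8 arrays, moderated variances with an intensity trend and 4 residual degrees of freedom gave the contrasts, with Benjamini-Hochberg adjustment over the 19934 probes, called at 0.05. The variance taken from the other probes had 19.59 prior degrees of freedom, so it weighs more than the spread of the probe itself. Where no array of a line detected a gene, a bound is given against the dimmest detected level (4.78 to 4.82). Such a bound holds for this background correction and offset only. Of the probes on the array, 28098 carry 1 symbol, 13 several and 20691 none in the platform annotation; 28059 were matched by Entrez ID to RefSeq (GRCh38.p14), used for names, chromosome and gene order because the files name no build. Figures were drawn with matplotlib 3.10.9.

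Named genes were ZFX, POU5F1, NANOG and SOX2; the 15 largest rises and falls; the 6 called genes at least 2-fold apart with the highest level; up to 4 called members of each list; and the 5 each way, at least 2-fold from H9, that differed most from clone 5. Genes of the chromosome 1 run, and further list members, were named with their values in view. The members, lists and rules were chosen with earlier results of these data known. The fit was checked on simulated arrays in which few probes changed, equally in both directions. Those arrays were drawn from normalized values, so the check does not cover the scaling. After normalization, same-numbered arrays of different lines deviated together at correlations of -0.02 to 0.06, so the main model does not pair arrays by replicate number. Quantile normalization removes array-wide shifts, so these correlations cannot show whether same-numbered arrays were handled together. Alternatives varied scaling, background, offset, filter, trend, arrays used and the replicate block.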

Additional observations from a re-analysis of the deposited data

Results flagged for a closer look

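The 2 ZFX clones were compared directly in the model of 4 line means, and 329 genes that differed between clone 2 and H9 also differed between clone 2 and clone 5. In the run of chromosome 1 from TRMT1L to COX20, 60 genes were higher in clone 2 than in clone 5.

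Among genes at least 2-fold apart from H9, those with the largest such differences, given as clone 2 minus clone 5 on the log2 scale, were ECHDC3 (-1.17), OTX2 (-1.05), LRRC58 (-0.88), CMIP (-0.72) and MT1M (-0.65) among those lower in clone 2. Among those higher in clone 2 they were KIAA0040 (1.92), LCP1, an actin-bundling protein (1.32), ARRB1, a beta-arrestin (1.18), MEIOB, a meiotic DNA-binding protein (1.07), and CLEC2A (1.03). Genes under 2-fold from H9 were not ranked, and some of them differed from clone 5 by as much, such as NUAK2 (1.21), SERTAD4 (1.10) and SFRP1 (-0.78). The value of KIAA0040 comes from 1 of the 2 clone 2 arrays.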

How the results depend on the processing

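Under median scaling, 750 probes and 477 genes were called (212 higher, 265 lower), of which 22 also differed from clone 5 and 223 from clone 3. The run of chromosome 1 then had a median of 0.16 against -0.09 over all genes, and 10 genes higher. Without an intensity trend, 2051 probes and 1402 genes were called (853 higher, 549 lower), 37 also differed from clone 5, 575 from clone 3, and 54 genes of the run were higher. Without a filter, 199 genes also differed from clone 5. The median of the run was 0.145 in the authors' processed values, 0.20 without background correction and 0.20 with an offset of 50. The cause of these shifts was not tested.

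Leaving out 1 of the 4 arrays gave 1867 to 2985 probes and 1334 to 2106 genes, 791 to 1213 higher and 543 to 893 lower. It gave 86 to 363 genes that also differed from clone 5 and 571 to 883 from clone 3. The run then had a median of 0.23 to 0.28 and 51 to 73 genes higher. ZFX stayed called, with log2 differences of 0.83 to 1.62 over all alternatives. Its limma adjusted p was 6.28e-04 without the intensity trend.

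With the replicate number as a block, 3495 probes and 2474 genes were called, and no call of a named gene changed. Adjusting over 1 probe per gene called 2485 genes. Leaving out the chromosome 1 run, an alternative added after the data were seen, left 2355, of which 1306 were higher. Scaling by the median of the tested probes, also added later, called 3173 probes. Of 35 lists, median scaling moved the count of higher members in 29 and the authors' values in 1. With 2 arrays a line, small differences near background are the least certain.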
